A study of Rattus norvegicus with 6 samples.

Results

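Triglyceride is built in the cell by adding fatty acyl chains, in order, to glycerol 3-phosphate. Acyltransferases make lysophosphatidate and then phosphatidate, a lipin phosphatase removes the phosphate to give diacylglycerol, and a diacylglycerol acyltransferase adds the last chain. The heart stores fatty acids that it does not oxidise at once in this form. Phosphatidate and diacylglycerol also feed the membrane phospholipids. The lipid phosphate phosphatases are a separate family, set in membranes with the active site facing outwards or into an organelle, where they remove the phosphate from lysophosphatidate, phosphatidate and sphingosine 1-phosphate and so end the signals that these lipids carry.

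The 10 genes described here are Gpam, Agpat2, Agpat3, Lpin1, Dgat1 and Dgat2 of triglyceride synthesis, the phosphatases Plpp1, Plpp2 and Plpp3, and the desaturase Scd. They were taken as every probe set whose annotated symbol is one of these names, which gave 12 probe sets of the 15866 on the array that are not controls, and 10 genes of 10411 named. The samples were left ventricles of 3 diabetic rats and 3 control (normal) rats, each animal measured as total RNA on 1 single-colour Affymetrix array. The labels do not say how diabetes was brought about or for how long, nor give strain, sex, age, feeding state or any other agent in either group. The values are the authors' signal intensities, linear and in arbitrary units, and the number of arrays limits their precision.

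The arrays had the same trimmed mean, at 500.2, and medians of 180.3 to 191.3. Cardiomyocyte markers were as for heart muscle: 6 of the 7 in the list were on the array and all 6 passed the filter on dim probe sets, with summed signals, here and below over the brightest probe set of each gene, of 137107 to 179217 in diabetic and 148965 to 185581 in normal arrays. These markers do not tell ventricle from atrium. Of the atrial markers, Myl7 was at 328, 468 and 131 in diabetic and 812, 162 and 99.9 in normal arrays. Myl4 and Sln also varied widely within groups. Myl7, Myl4 and Sln did not pass the limma test described below (adjusted p = 0.922, 0.664 and 0.292). Nppa had means of 25244 in diabetic and 3671 in normal arrays and rose in that test (log2 2.76, adjusted p = 0.00087). The part of atrial tissue in these values was not tested. The array of normal rat 3 stood low for part of the set. Its Gpam and Dgat2 signals lay more than 1 log2 unit below those of both other normal rats, which held for 2 of the 10 tested probe sets of the set against 0.515% of all tested probe sets. This feature was picked after the values were seen, and results that turn on that array are given with and without it.

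Probe sets entered the test when the mean of log2(signal + 16) across the 6 arrays was above the 40th percentile, so that the filter does not use the groups. Of the 12 probe sets, 10 passed, covering 8 genes, while the single probe sets of Plpp2 and Scd lay below it. Fold changes are log2 values, diabetic over normal, of signal + 16, and the added 16 makes the change of dim genes look smaller than it is. Changed means an adjusted p under 0.05 in limma, Benjamini-Hochberg over all 9519 tested probe sets. An exact permutation test of 3 against 3 arrays cannot go below p = 0.1, so calls rest on limma's shared estimate of the spread.

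Plpp3, the phosphatase known in mice to be needed for blood vessel development and abundant in endothelium, was the only one of the 8 tested genes that changed. It fell at 1 of its 3 probe sets, 1370951_at, and lay lower in every diabetic than in every normal heart at all 3. At 1370951_at all 3 diabetic signals were below 112.8, the level at which the filter on dim probe sets lay, so it entered the test through its normal arrays. The other 7 tested genes did not pass in either direction. Thus 1 of 10 tested probe sets fell and 0 rose, against 1.38% and 1.5% of all tested probe sets (2.88% in either direction). At an unadjusted p under 0.05 there were 5 of 10, against 19.9%. The groups did not overlap at 5 of 10, against 25.7%, and 3 of those 5 belong to Plpp3 alone. The other 2 were Dgat1, lower, and Lpin1, higher. The median log2 fold change of the 10 was -0.29, beside -0.01 over all tested probe sets, and 7 of the 10 lay below 0. Plpp3 counts 3 times in that median and among those 7.

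**Figure D1:**
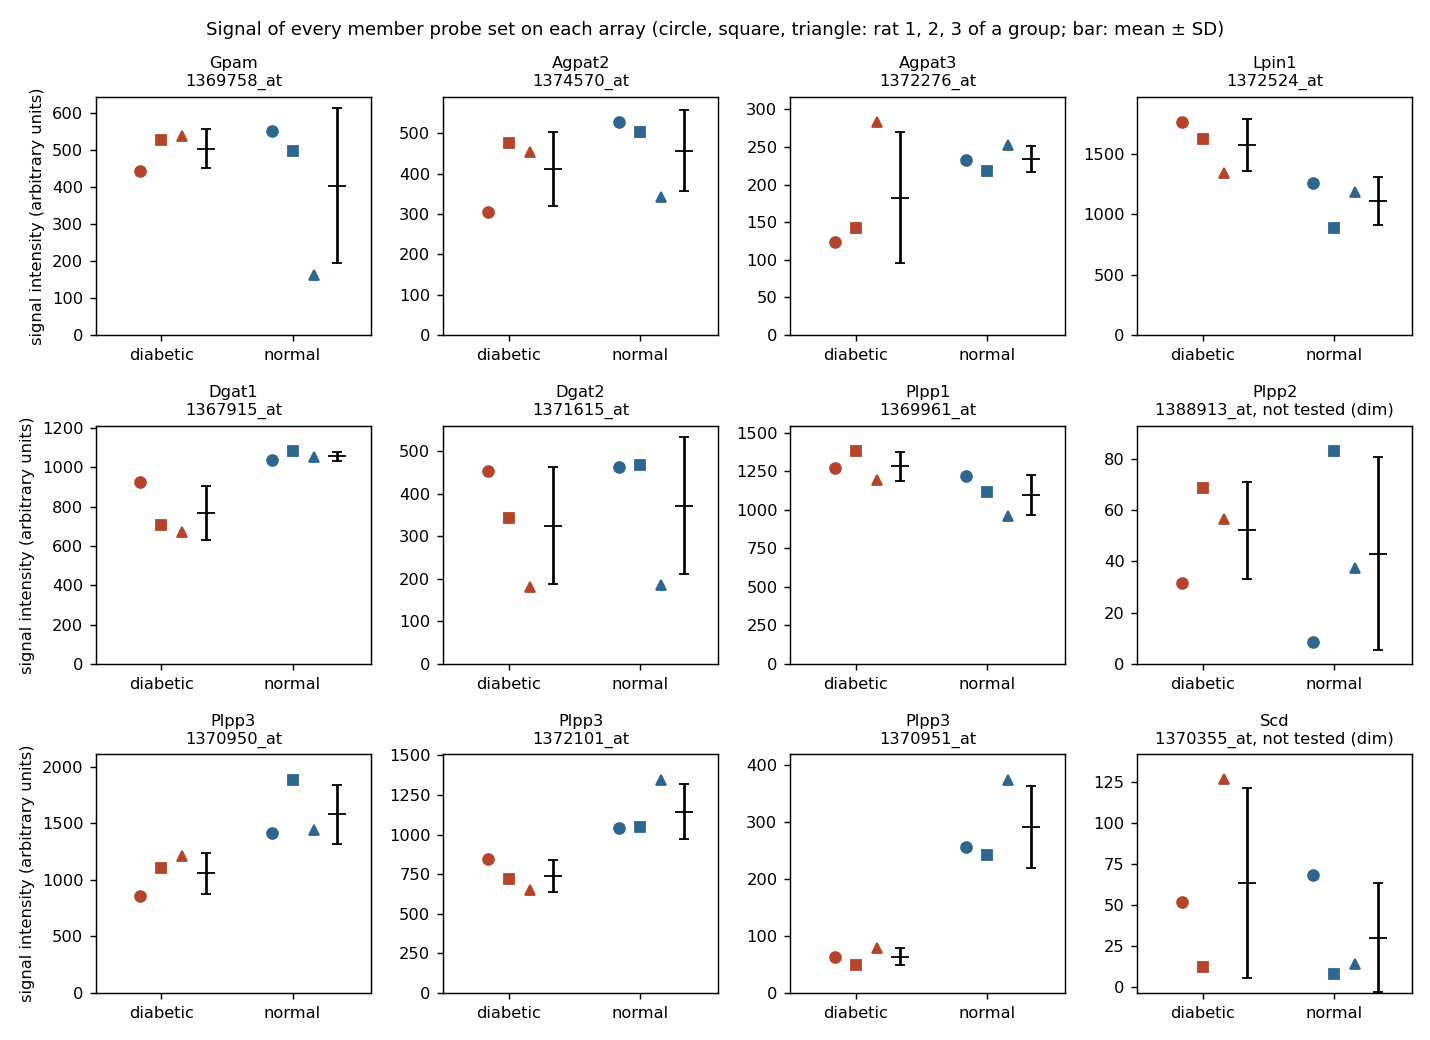
Signal intensity (arbitrary units, linear axis) of all 12 probe sets, with diabetic arrays on the left and normal arrays on the right of each panel. Symbols are single rats and bars are mean ± SD (n = 3). The groups are apart for Lpin1, Dgat1 and the 3 Plpp3 probe sets, and the triangle of normal rat 3 lies low for Gpam and Dgat2.

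The RefSeq sequence just upstream of the Plpp3 start is shown because Plpp3 is the gene on which the result rests, although the arrays measured its transcript and not this region. Of the 10 genes, 7 had an entry in the promoter table. The 250 bases before the start, at chr5:125155750-125155999 on the plus strand of build GRCr8, are these, with the capitals marking the one motif found.
Plpp3: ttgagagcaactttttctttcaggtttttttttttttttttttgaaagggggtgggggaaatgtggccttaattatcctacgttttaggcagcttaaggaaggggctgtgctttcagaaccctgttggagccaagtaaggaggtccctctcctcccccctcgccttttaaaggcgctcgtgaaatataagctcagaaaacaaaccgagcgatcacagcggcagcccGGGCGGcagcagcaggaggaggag
The motif is a GC box (GGGCGG), which begins 24 bases before the start. Both strands were searched for GGGCGG, for a CCAAT box (CCAAT), an E-box (CACGTG), a nuclear receptor half-site (AGGTCA) and a TATA box (TATAAA), and no match overlapped another. A GC box stood in 32.4% of 27457 promoter windows of that length, a CCAAT box in 34.3%, an E-box in 5.79%, a half-site in 13.7% and a TATA box in 13.1%. The match is a description of the letters only.

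At the probe set 1370951_at, the Plpp3 signal was 63.2, 48.8 and 79.6 in the diabetic hearts, against 255.9, 242.9 and 373.9 in the normal hearts. Every diabetic value was less than any normal one by a wide margin. The means were 63.9 ± 15.4 in diabetic and 290.9 ± 72.2 in normal hearts (SD, n = 3 each). The diabetic signals are dim and no detection calls were used here, so the size of the difference is less certain than its direction. On the log2 scale the change was -1.94 ± 0.21 (SE), with a 95% confidence interval of -2.41 to -1.46 and an adjusted p of 0.00411. With 1 array left out at a time it stayed between -2.07 and -1.75 and kept its call, at an adjusted p of 0.0178 or less. Those fits kept the probe sets chosen on all arrays, so they do not re-examine how 1370951_at passed the dim filter. It passed through its normal arrays, as all its diabetic signals lay below the filter level of 112.8. Without any filter on dim probe sets the adjusted p was 0.0583, the highest of the alternatives, which otherwise ran from 0.00144. With no filter but an intensity trend in the prior variance, an alternative added after seeing the data, it was 0.0093.

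The other probe sets of Plpp3 were brighter, with smaller differences between the groups. At 1370950_at the signal was 855, 1106 and 1211 in diabetic hearts, against 1416, 1882 and 1443 in normal hearts, a log2 difference of -0.58 ± 0.19 (SE, adjusted p = 0.131). At 1372101_at it was 846, 717.5 and 649 in diabetic hearts, against 1044.5, 1047 and 1345 in normal hearts, a log2 difference of -0.62 ± 0.17 (SE, adjusted p = 0.0881). At both, no diabetic heart reached any normal heart, as for 13.6% of all tested probe sets, and neither passed. The probe set 1372101_at passed in 2 alternative fits. Its adjusted p was 0.0468 when the dim filter was set at the 60th percentile and 0.0398 with an intensity trend in the prior variance. Over all alternatives it ranged from 0.0398 to 0.269.

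The annotation gives the accession Y07783 for both 1370951_at and 1370950_at, and AI177031 for 1372101_at, so the probe sets whose changes were furthest apart share an accession. As a share of the normal mean, diabetic hearts held 16.8% to 27.4% at 1370951_at. The shares were 54.1% to 76.6% at 1370950_at and 56.6% to 73.9% at 1372101_at. The size of the disagreement was tested on the difference, within each array, between the log2 signals of 2 probe sets of one gene, over all 1319 such pairs of tested probe sets. The difference between 1372101_at and 1370951_at was 3.44, 3.50 and 2.80 log2 units in diabetic hearts, against 1.96, 2.04 and 1.80 in normal hearts. It was larger in diabetic hearts by 1.31 ± 0.23 (SE), with an interval of 0.80 to 1.83 that does not allow for the dim diabetic signals of 1370951_at, an unadjusted p of 0.00027 and an adjusted p of 0.169. The same comparison with 1370950_at gave 1.36 ± 0.28 (SE, unadjusted p = 0.000881, adjusted p = 0.232). Neither passed after adjustment. No pair of tested probe sets did (limma, 0 of 1319 pairs, 0.0%), while 110 pairs (8.34%) had an unadjusted p under 0.05. Between the brighter probe sets the difference was 0.05 ± 0.28 (SE, adjusted p = 0.98).

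**Figure D2:**
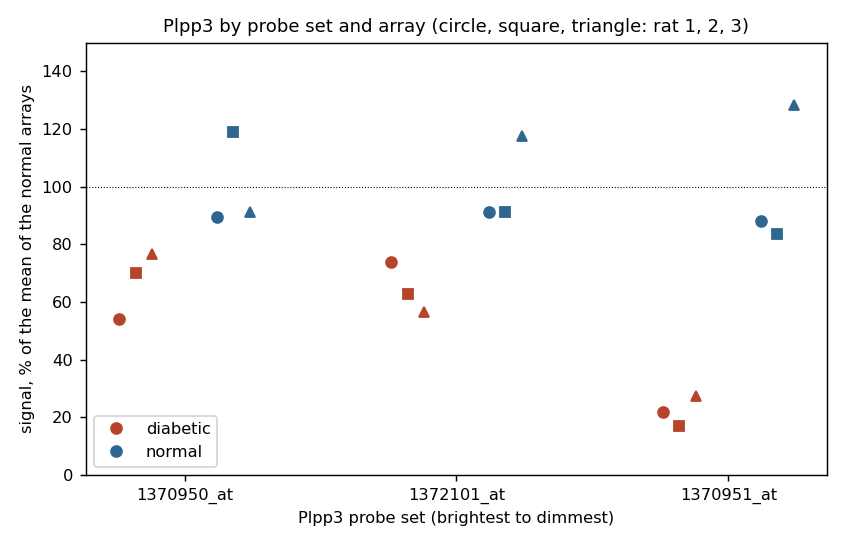
Signal of the 3 Plpp3 probe sets as a percent of the mean of the normal arrays, ordered from the brightest on the left to the dimmest on the right. Each symbol is 1 rat, with diabetic hearts in red on the left of each pair and normal hearts in blue. Diabetic hearts lie at 54.1% to 76.6% for 1370950_at and at 16.8% to 27.4% for 1370951_at.

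Plpp3 is expressed by endothelial cells and fibroblasts, and in a whole ventricle fewer cells of a type cannot be told apart from less transcript per cell. Of 8 endothelial markers, 6 were on the array with 8 probe sets, all tested. Their summed signal was 5436 to 6362 in diabetic and 5476 to 6146 in normal hearts. Of the log2 fold changes of these 8 probe sets, 6 lay above 0 and 2 below, with a median of 0.28. Tie1, an endothelial receptor, fell (log2 -0.94 ± 0.17, SE, adjusted p = 0.0222, lost without diabetic 2 or 3 or normal 2 or 3, at most 0.0811), and it was the only endothelial marker that passed. Pecam1, the adhesion molecule CD31, was at 820, 967 and 899 in diabetic and 817, 443 and 459 in normal hearts (log2 0.68 ± 0.23, SE, adjusted p = 0.147). All 7 fibroblast markers were on the array, and 6 of their 9 probe sets fell, against 1.38% of all tested probe sets. All 6 were for Col1a1, Col1a2, Col3a1 and Lum, with Col1a1 and Col1a2 each counted through both of their probe sets. The summed signal of the 7 markers was 20687 to 21966 in diabetic and 32257 to 37086 in normal hearts. Within that sum, Col3a1 had a mean of 2579 in diabetic and 10058 in normal hearts. The other fibroblast markers Pdgfra (log2 -0.24, adjusted p = 0.562), Dcn (log2 -0.01, adjusted p = 0.982) and Tcf21 (log2 -0.29, adjusted p = 0.383) did not pass. The part of these cells in the Plpp3 result was not tested.

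Plpp1, a family member found in many tissues, had a signal of 1271, 1381 and 1195 in diabetic hearts, against 1218, 1118 and 957.5 in normal hearts. The groups overlapped by a small amount, and the log2 difference was 0.23 ± 0.15 (SE, adjusted p = 0.455), with an interval of -0.12 to 0.57. Plpp2, the third form, was dim, at 31.4, 68.5 and 56.6 in diabetic and 8.6, 83.0 and 37.4 in normal hearts, with the groups mixed. It was not tested.

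Gpam, the mitochondrial glycerol 3-phosphate acyltransferase, is among the enzymes of the first step of triglyceride synthesis. Its signal was 443.5, 528.5 and 539.7 in diabetic hearts, against 552, 497 and 163 in normal hearts. Normal rats 1 and 2 lay among or above the diabetic hearts, and normal rat 3 lay far below all the others. The log2 difference was 0.47 ± 0.38 (SE, adjusted p = 0.548) over all arrays and -0.06 (adjusted p = 0.918) without normal 3, so its sign rested on that array. Its adjusted p was 0.34 or more in every alternative. Its within-group SD on the log2 scale was 0.66, higher than that of 98.6% of tested probe sets, whose median was 0.21.

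The acyltransferases that add the next chain did not pass. Agpat2, the main form of adipose tissue, whose loss causes lipodystrophy in people and mice, had a signal of 306, 476 and 453 in diabetic hearts, against 528, 503 and 341 in normal hearts. The groups overlapped (log2 -0.15 ± 0.22, SE, adjusted p = 0.774), and without diabetic 1 the difference was 0.04. Agpat3, a second enzyme of this step, was at 123, 142 and 283.0 in diabetic hearts, against 232, 218 and 253 in normal hearts. Diabetic rats 1 and 2 were below all normal rats and diabetic rat 3 above them. The log2 difference was -0.42 ± 0.27 (SE, adjusted p = 0.427), and -0.75 (adjusted p = 0.0812, in a range of 0.0812 to 0.719 over the alternatives) without diabetic 3.

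Lpin1 encodes lipin-1, which turns phosphatidate into diacylglycerol and in mouse liver also acts as a coactivator of fatty acid oxidation genes. Its signal was 1759, 1617 and 1340.4 in diabetic hearts, against 1257, 882 and 1185 in normal hearts. Every diabetic heart was above every normal heart, as for 12.1% of all tested probe sets. The means were 1572 ± 213 in diabetic and 1108 ± 199.0 in normal hearts (SD, n = 3 each), a ratio of 1.42. The log2 difference of 0.51 ± 0.18 (SE) had an interval of 0.09 to 0.92 and an unadjusted p of 0.0222, and it did not pass (adjusted p = 0.168). It stayed between 0.35 and 0.62 with any 1 array left out.

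The last acylation is shared by enzymes of unrelated sequence. Dgat1 had a signal of 924, 709 and 673 in diabetic hearts, against 1037, 1082 and 1051 in normal hearts. The normal hearts lay close together and every diabetic heart lay below them, as for 13.6% of all tested probe sets. The means were 769 ± 136 in diabetic and 1057 ± 23.3 in normal hearts (SD, n = 3 each). The log2 difference of -0.46 ± 0.16 (SE) had an interval of -0.83 to -0.10 and an unadjusted p of 0.0177, and it did not pass (adjusted p = 0.155). With 1 array left out it stayed between -0.60 and -0.38.

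Dgat2, the form that in mice carries most triglyceride synthesis in liver and fat, was at 453, 342 and 180.5 in diabetic hearts, against 463, 467 and 185 in normal hearts. One heart of each group was low, rat 3 in both. The log2 difference was -0.17 ± 0.39 (SE, adjusted p = 0.864), with an interval of -1.06 to 0.73 that leaves room for a change of either sign. It was -0.58 without normal 3 and 0.19 without diabetic 3. Its within-group SD was 0.69 on the log2 scale, higher than that of 98.8% of tested probe sets.

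Scd, the desaturase that makes oleate, a preferred substrate of triglyceride synthesis, was dim and varied widely within groups. Its signal was 51.7, 12.5 and 126.6 in diabetic hearts, against 68.5, 7.7 and 14.2 in normal hearts, and it was not tested. Its near copy Scd2 had 1 tested probe set, at 292, 237 and 145 in diabetic and 320.1, 228 and 329 in normal hearts (log2 -0.39 ± 0.25, SE, adjusted p = 0.431). The probe sets of such close copies may share signal.

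**Figure D3:**
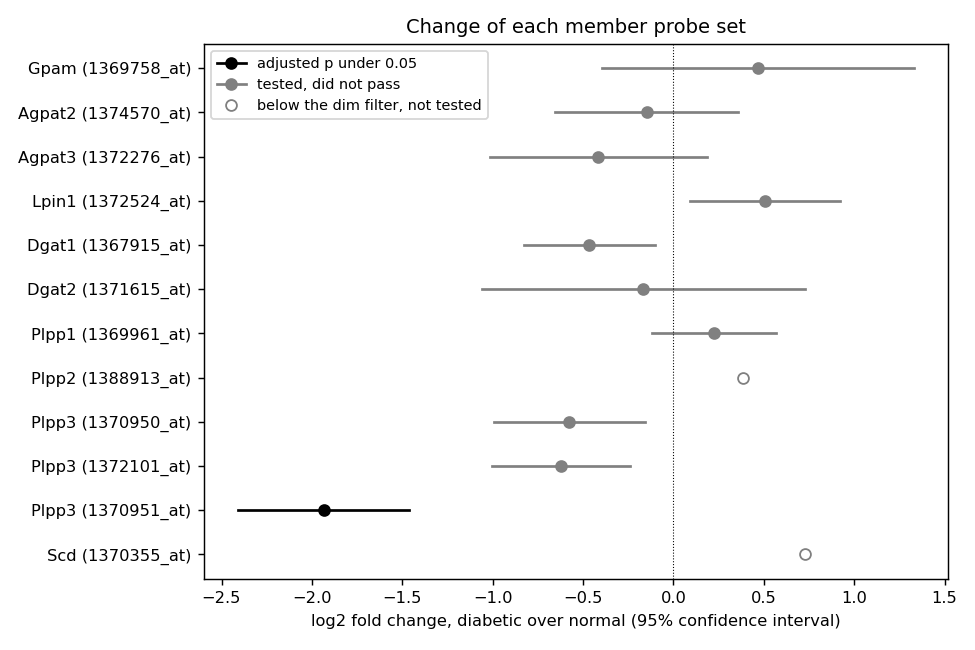
Log2 fold change, diabetic over normal, of the 12 probe sets, with limma's 95% confidence interval. Black marks an adjusted p under 0.05, grey a tested probe set that did not pass and an open circle one below the dim filter, shown without an interval. Only 1370951_at of Plpp3 passes, at -1.94, and the intervals of Gpam and Dgat2 are the widest of the 10.

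**Figure D4:**
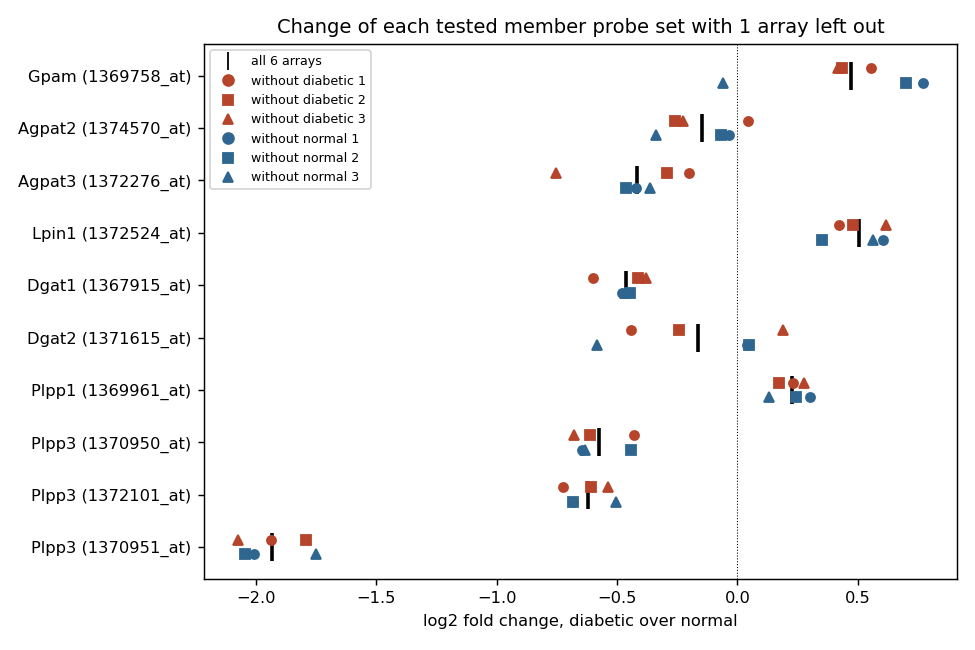
Log2 fold change of the 10 tested probe sets over all 6 arrays (vertical bar) and with each array left out (red for a diabetic array, blue for a normal one). Gpam moves to -0.06 without normal 3, Dgat2 lies between -0.58 and 0.19, and 1370951_at of Plpp3 stays at or below -1.75.

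Adipose tissue expresses Gpam, Agpat2, Dgat2, Lpin1 and Scd strongly, and adipocyte markers were read beside them. Of 8 markers, 5 were on the array and 3 passed the dim filter. Lep, the adipocyte hormone leptin, at 6.7 to 55.5, and Plin1, the coat protein of adipocyte lipid droplets, at 26.2 to 76.2 over all arrays, did not pass it. The summed signal of the 5 was 6805 to 8930 in diabetic and 6189 to 7657 in normal hearts. Fabp4 made up most of that sum, at 4881 to 7223 in diabetic and 5180 to 6248.5 in normal hearts. Lipe, hormone-sensitive lipase, was at 1671, 1612 and 1409 in diabetic hearts, against 1333, 1196.5 and 700.3 in normal hearts (adjusted p = 0.209), so that normal rat 3 was lowest there as it was for Gpam. Fabp4, Cfd, Plin1 and Lep were not lowest in normal rat 3 among the normal hearts, and Plin1 was highest there of all 6. The part of adipocytes in these values was not tested.

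The neighbouring steps of glycerolipid metabolism were read from 5 lists that cover 82 genes, of which 58 were on the array and 45 had a tested probe set. Of their 54 tested probe sets, 2 fell and 0 rose, beside 1.38% and 1.5% of all tested probe sets, and the median log2 fold change was -0.09.

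In the list of glycerol 3-phosphate supply and acylation, 4 of 10 tested probe sets had an unadjusted p under 0.05, against 19.9% of all tested probe sets. Of these 10, 1 fell, against 1.38%. It was that of Gpd2, the mitochondrial glycerol 3-phosphate dehydrogenase, with a signal of 193, 90.0 and 115 in diabetic hearts against 306.5, 287 and 394 in normal hearts (log2 -1.26 ± 0.25, SE, adjusted p = 0.0344). That call was kept only without diabetic 1 and lost without any other single array, at most 0.119 without normal 3. The other Gpd2 probe set was at -0.57 (adjusted p = 0.18), and the difference between the Gpd2 probe sets did not pass (adjusted p = 0.537 over all pairs). Lclat1, which remodels cardiolipin, was at -0.57 ± 0.15 (SE, adjusted p = 0.0865). Gpd1, the cytosolic dehydrogenase that makes glycerol 3-phosphate, was at 0.49 ± 0.18 at its dimmer probe set (SE, adjusted p = 0.168) and 0.40 at the other.

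The list of other lipid phosphatases and lysophosphatidate signalling had 1 fall among 10 tested probe sets, against 1.38% of all tested probe sets. Its median was -0.35, and 4 of the 10 had an unadjusted p under 0.05, against 19.9%. Plpp7, a relative of the lipid phosphate phosphatases found at the nuclear envelope of muscle, was at 960, 1034 and 1012 in diabetic hearts against 1544, 1992 and 2555 in normal hearts. Its fall of -0.98 ± 0.19 on the log2 scale (SE, adjusted p = 0.0335) was kept only without normal 1 and lost without any other single array, at most 0.0957 without normal 3. Lpar1, a receptor for lysophosphatidate, lay lower in every diabetic than in every normal heart at both probe sets, as for 13.6% of all tested probe sets. Its log2 differences were -0.68 ± 0.21 (SE, adjusted p = 0.114) and -0.42 ± 0.16 (SE, adjusted p = 0.20). Enpp2, which encodes autotaxin, the enzyme that makes lysophosphatidate outside cells, was at -0.17 (adjusted p = 0.708). Pld1, a phospholipase that makes phosphatidate, was at -0.56 and -0.27 at its tested probe sets (adjusted p = 0.158 and 0.41).

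No tested probe set passed in the other 3 lists, of 16, 5 and 13 probe sets. The counts at an unadjusted p under 0.05 below stand beside 19.9% of all tested probe sets. In the phospholipid branch (median -0.05, 3 of 16 with an unadjusted p under 0.05), Chka, a choline kinase that starts phosphatidylcholine synthesis, was at 321, 346 and 232 in diabetic hearts against 189, 91.5 and 141 in normal hearts (log2 1.04 ± 0.25, SE, adjusted p = 0.0626). Chka passed with a pseudocount of 64, with an intensity trend and without normal 1. Pcyt2, of phosphatidylethanolamine synthesis, was at -0.52 ± 0.17 (SE, adjusted p = 0.129), and Cds2, which commits phosphatidate to phosphatidylinositol, at 0.56 ± 0.23 (SE, adjusted p = 0.211). Among the diacylglycerol kinases, which return diacylglycerol to phosphatidate (median 0.39, 2 of 5 with an unadjusted p under 0.05), Dgkq was at 0.63 ± 0.20 (SE, adjusted p = 0.128), Dgkd at 0.46 ± 0.19 (SE, adjusted p = 0.22) and Dgkz at 0.39 ± 0.30 (SE, adjusted p = 0.526, and -0.02 without normal 1). In fatty acid synthesis, desaturation and elongation (median 0.04, 4 of 13 with an unadjusted p under 0.05), Srebf1, the transcription factor SREBP-1, was at 0.46 and 0.42 at its probe sets (adjusted p = 0.136 and 0.236). All diabetic hearts were above all normal hearts at both, as for 12.1% of all tested probe sets. Fads1, the delta-5 desaturase, was at -0.67 ± 0.22 (SE, adjusted p = 0.138). Elovl5, an elongase of polyunsaturated chains, was at -0.33 ± 0.14 at its brighter probe set (SE, adjusted p = 0.251). At the other it was at -0.20 ± 0.20 (SE, adjusted p = 0.62), with the groups overlapping.

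**Figure D5:**
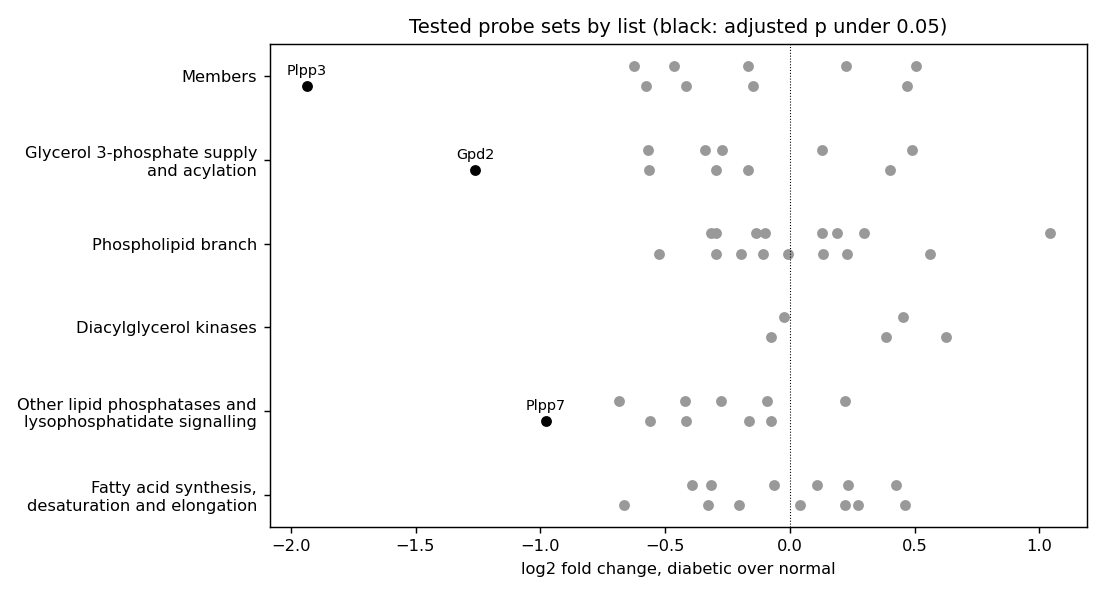
Log2 fold change, diabetic over normal, of every tested probe set of the 10 genes and of the 5 neighbouring lists. Each point is 1 probe set, black with its gene name where the adjusted p is under 0.05. The black points are Plpp3 at -1.94, Gpd2 at -1.26 and Plpp7 at -0.98.

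On the side of triglyceride breakdown, Pnpla2, the lipase that starts it, rose (log2 1.49, adjusted p = 0.0176, lost without diabetic 2 or 3, at most 0.069), and its inhibitor G0s2 fell (log2 -1.74, adjusted p = 0.0396, kept only without diabetic 3, at most 0.119). Plin2, which coats lipid droplets, was at 0.27 and 0.19 at its probe sets (adjusted p = 0.587 and 0.552).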

How the data were processed

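Left ventricular RNA of 3 diabetic and 3 normal rats was measured, with 1 array per animal. The authors deposited linear signal intensity values, 1 per probe set and array; the software behind them is not given in the sources used here. Trimmed means (2% from each end) were equal, so the deposited intensities were used unscaled. The 57 control probe sets were left out. Symbols came from the platform annotation, updated by gene number through a RefSeq gene table (12748 of 12783 single-gene probe sets matched).

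The groups were set against each other on log2(intensity + 16) by limma's lmFit and eBayes (limma 3.58.1, R 4.3.3, two-sided, no other term), for probe sets above the 40th percentile of mean log2 signal. The planned filter did not state the scale of that mean; the log2 scale was taken after both had been run, and the mean intensity gave 245 calls against 274, with 241 shared. Pairs of probe sets of one gene were compared in the same way on their within-array difference. The code was tested on simulated data.

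Members, lists and marker sets were chosen with earlier results of these data known. Named are all members, and from each neighbouring list the genes that passed or the 3 with the smallest p; Enpp2, Scd2, Elovl6, Fasn and Thrsp were named outside that rule, after their values were seen. Figures used matplotlib 3.10.9 in Python 3.11.15. The alternatives are given at the end.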

Additional observations from a re-analysis of the deposited data

How the results depend on the processing

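The fall of Plpp3 at 1370951_at was between -2.17 and -1.46 on the log2 scale over 18 alternatives and kept its call in 17 of them. Without the dim filter it was at an adjusted p of 0.0583, where 18 of 15866 probe sets passed in all, 0 of them in the set and 0 in the neighbouring lists. The filter at the 60th percentile removes that probe set; 437 probe sets then passed in all, 1 of them in the set (Plpp3 at 1372101_at) and 1 in the lists. With an intensity trend 527 passed in all and 2 in the set, and at a threshold of 0.1 the counts were 674 in all, 2 in the set, 4 in the lists and 1 of the pairs of probe sets. No filter with an intensity trend, added after seeing the data, gave 371 in all, 1 in the set (Plpp3 at 1370951_at, adjusted p = 0.0093) and 1 in the lists. With 1 array left out, 100 to 202 passed in all (100 without diabetic 2 or normal 3, 135 without diabetic 3 and 138 without normal 2), 1 in the set each time, 0 to 2 in the lists and 0 pairs. With 1 array left out, log2 fold changes ran from -0.060 (without normal 3) to 0.77 for Gpam, from -0.34 to 0.045 (without diabetic 1) for Agpat2, and from -0.58 to 0.19 for Dgat2 (0.19, 0.04 and 0.05 without diabetic 3, normal 1 and normal 2), and the near-zero difference between the brighter Plpp3 probe sets from -0.14 to 0.29 (below 0 without diabetic 2, diabetic 3 or normal 3). The causes were not tested. The fits with 1 array left out used the probe sets chosen on all arrays, so the entry of 1370951_at through its normal arrays was not re-examined in them.

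The labels number the rats 1 to 3 in both groups, but nothing says that a number marks a shared litter or day, and deviations of same-numbered arrays correlated at 0.0655, 0.0142 and 0.0158 only, so the numbers were not taken as pairs. With the replicate number as a block 183 probe sets passed against 274, 1 of them in the set and 2 in the lists. Dim genes limit these data: Scd and Plpp2 lay below the filter, which acts on the mean over all arrays, and the diabetic signals of Plpp3 at 1370951_at lay below its level of 112.8.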

Other observations

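Of the genes of fatty acid synthesis and elongation that lay below the dim filter, Elovl6, the elongase that carries palmitate to stearate, was chosen after its values were seen. Its signal was 101.4, 101.0 and 126.3 in diabetic hearts, against 24.5, 38.7 and 43.0 in normal hearts (log2 1.30 on the same scale, not tested). Every diabetic heart was above every normal heart, as for 12.1% of all tested probe sets. No such share was computed for the dim ones. The probe sets of Fasn, the fatty acid synthase, were at 26.4 to 86.7 and 21.9 to 88.5 in diabetic hearts, against 37.3 to 88.8 and 66.1 to 127.6 in normal hearts, with the groups overlapping at both. Thrsp, a lipogenic protein of liver and fat, was at 31.7 to 71.7 in diabetic hearts and at 53.5 to 134.9 in normal hearts at its brightest probe set, also with overlap.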
